A study of Mus musculus with 2 samples.

Results

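The VEGF and angiopoietin signalling genes were followed in nuclei of the mouse brain, at embryonic day 14 (E14) and in the adult. The 9 members were taken by symbol from the gene lists of both count matrices, and all 9 were found in each, among 32285 genes. They are the ligands Vegfa, Vegfc, Angpt1 and Angpt2, the VEGF receptors Flt1, Kdr and Flt4, the angiopoietin receptor Tek, and its relative Tie1. Nuclei came from Slide-tags, a method that labels the nuclei of a frozen tissue section with spatial barcodes before droplet sequencing, and the positions were not used here. The adult group was the hippocampus of a male C57BL/6J mouse at 56 days of age, and the embryonic group was the brain of a C57BL/6J embryo at E14, from a purchased, snap-frozen whole embryo whose sex was not given. C57BL/6J is an inbred laboratory strain, and no engineered allele or experimental treatment was named for either group. Adult mice were perfused with buffer under isoflurane anaesthesia, and the pregnant mouse was perfused with saline. Each group was 1 library, so age, brain region, tissue handling, Cell Ranger version and library cannot be told apart in any difference between them, and no test between the groups was made.

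Vascular endothelial growth factors bind receptor tyrosine kinases on endothelial cells and drive the growth of vessels. VEGF-A acts mainly through KDR, while FLT1 binds it tightly, signals weakly and, as a short secreted form, traps it, and VEGF-C acts through FLT4 and KDR. Angiopoietin-1 activates the receptor TEK and stabilises vessels, whereas angiopoietin-2, a context-dependent antagonist, is known as a product of endothelial cells of remodelling vessels. UMIs (unique molecular identifiers, each marking 1 captured RNA molecule) were counted per gene, so that the short and the full-length form of Flt1 were not separated.

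The filtered libraries held 1609 adult nuclei with a median of 6607 UMIs and 9036 E14 nuclei with a median of 4204 UMIs, and they shared 1 barcode. The library labelled hippocampus also held 99 thalamic-like nuclei, and the embryonic brain library 343 fibroblast or mesenchyme-like nuclei. Each nucleus was given a class by the UMIs of 10 marker genes per class, none of which is a member, and classes are called "like" because they rest on these markers alone. This left 341 adult nuclei (21.2%) and 5605 E14 nuclei (62.0%) without a class. The endothelial-like class held 44 adult nuclei (222124 UMIs, median 3372) and 165 E14 nuclei (2250435 UMIs, median 9049), of which 41 and 151 fell in 1 cluster each when nuclei were clustered without the members. All 10 endothelial markers, such as the tight junction gene Cldn5, had UMIs there, at a summed level of 9040 UMIs per 1000000 UMIs of the class (CPM) in the adult and 4051 in the E14 nuclei. The cut was soft: 14 E14 nuclei lay just inside it and 52 just outside, against 3 and 6 in the adult. The adult mural-like class, of only 13 nuclei, also carried the endothelial markers at 5666 CPM and had haemoglobin genes among its leading genes, so its values are given beside these markers. In the other 9 adult classes of at least 10 nuclei the endothelial markers summed to between 14.9 and 70.9 CPM. At E14 they were higher in some classes, at 558.9 in mural-like and 549.6 in choroid plexus-like nuclei (89.8% Mecom). Fibroblast or mesenchyme-like nuclei had 190.4 (72.4% Cdh5) and radial glia-like nuclei 106.1 (68.0% Mecom). The remaining E14 classes of at least 10 nuclei had at most 57.71. Levels are given with exact 95% Poisson intervals, and ratios have exact conditional binomial intervals. These cover counting error only, and not the spread between nuclei or mice.

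The 5 receptors marked the endothelial-like class in both libraries. Flt1 (chr5:147561604-147726011, minus strand, mm10) stood at 4331 CPM in adult endothelial-like nuclei (962 UMIs, interval 4062 to 4613) and at 750.1 in E14 endothelial-like nuclei (1688 UMIs, 714.7 to 786.7). Kdr (chr5:75932827-75978458, minus strand) was at 337.6 (75 UMIs, 265.6 to 423.2) and 427.5 (962 UMIs, 400.9 to 455.4). Tek (chr4:94739289-94874976, plus strand) was at 324.1 (72 UMIs, 253.6 to 408.2) and 293.7 (661 UMIs, 271.8 to 317.0). Flt4 (chr11:49609263-49652739, plus strand) was at 45.0 (10 UMIs, 21.6 to 82.8) and 54.2 (122 UMIs, 45.0 to 64.7), and is best known from lymphatic vessels. Tie1, an orphan receptor that pairs with TEK, was at 175.6 (39 UMIs, 124.9 to 240.0) and 136.4 (307 UMIs, 121.6 to 152.6) and was without a single UMI in 8 of the other 10 adult classes. The 4 ligands, in contrast, had their highest level in other classes in both libraries, as the map of levels by class shows.

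**Figure D1:**
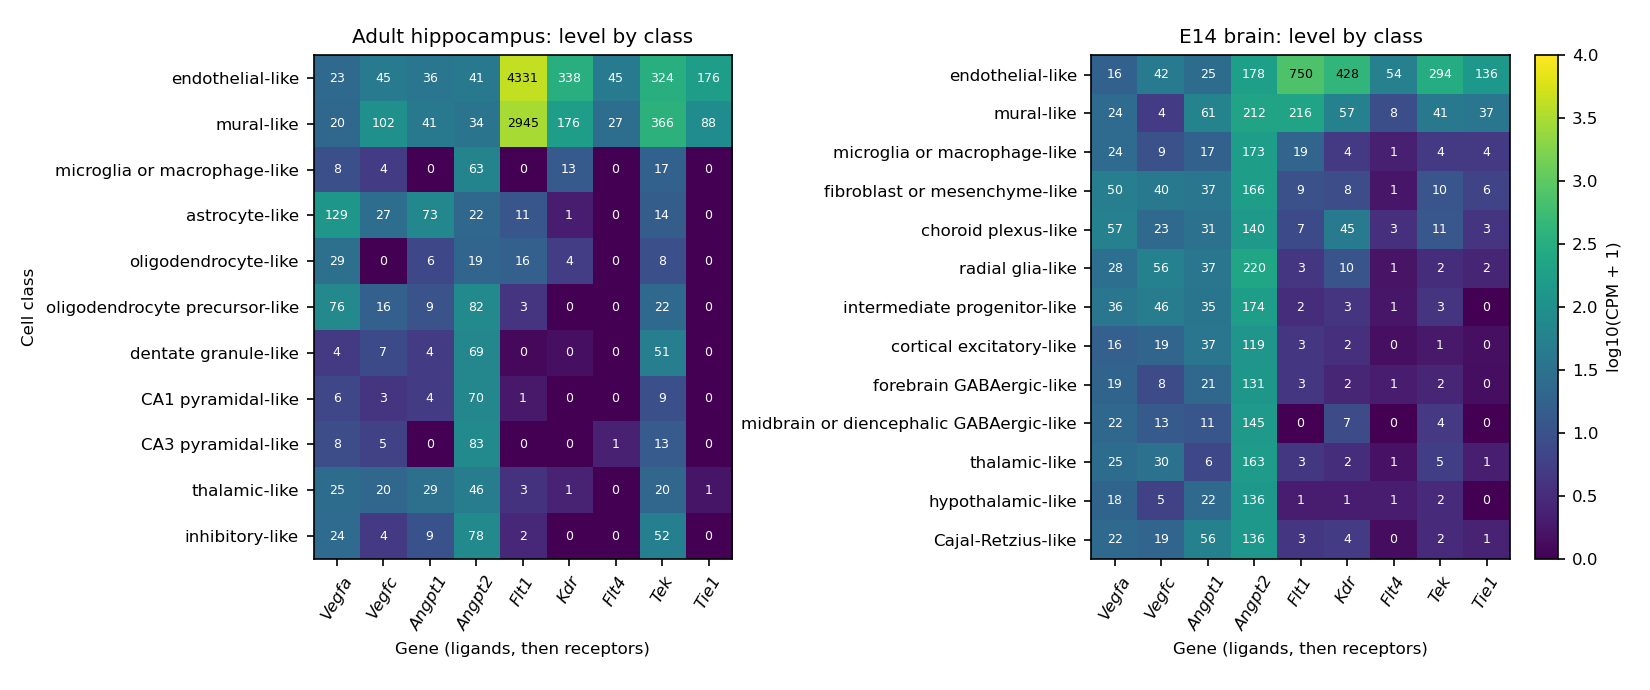
Level of the 9 genes in each cell class of at least 10 nuclei, in the adult hippocampus (left) and the E14 brain (right), with colour on the scale log10(CPM + 1) and the rounded level printed in each cell. The receptors Flt1, Kdr, Flt4, Tek and Tie1 have their highest levels in the endothelial-like rows or the adult mural-like row. Flt4 is faint there, at 45.0 (adult) and 54.2 (E14) in the endothelial-like rows. Angpt2 is spread over all classes.

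Set against all other classified nuclei of the same library, 6 of the 9 genes were at least 4 times higher in adult endothelial-like nuclei, where 10.6% of the 17648 genes tested passed the same bound. In the E14 library 5 of the 9 passed, where 4.69% of 20182 genes did. The 5 receptors passed in both. Adult Flt1 was 121-fold higher than in the other nuclei (interval 109 to 136), Tie1 168-fold (89.1 to 334.5) and Tek only 10.45-fold (8.02 to 13.45). In the E14 nuclei Flt1 was 120-fold (103 to 142), Tek 77.5-fold (62.9 to 96.2) and Tie1 77.95-fold (57.4 to 108) higher. The sixth adult gene was Vegfc at 4.90-fold (2.29 to 9.31), from 10 UMIs in 3 nuclei. By highest class, 4 of the 9 genes peaked in the endothelial-like class of the adult and 5 in that of the embryo. Without the adult mural-like class, which exceeded it for Tek and Vegfc, the adult count was 6. The share of all genes that peak in the endothelial-like class was not computed, so these counts by highest class are a description only.

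Receptor transcripts were found together in single nuclei. At least 3 of the 5 receptors had a UMI in 31 of 44 adult endothelial-like nuclei (70.5%) and in 127 of 165 E14 ones (77.0%). All 5 were detected in 4 and 53 nuclei, and the E14 nuclei were the deeper ones. Flt1 was the receptor seen most often, in 43 adult nuclei (97.7%, exact binomial interval 88.0 to 99.9) and 142 E14 nuclei (86.1%, 79.8 to 90.95).

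Sequence just upstream of 3 of these receptor genes is shown because they share the endothelial pattern, with 250 bases before and 50 after the annotated start (RefSeq, GRCm38.p6, the assembly also called mm10, gene strand). Capitals mark the ETS-type motifs CGGAAG and AGGAAG on either strand, the core that the endothelial ETS factors such as ERG recognise. The windows are chr5:147725962-147726261 for Flt1, chr5:75978406-75978705 for Kdr and chr4:118489800-118490099 for Tie1, all on the minus strand.
Flt1: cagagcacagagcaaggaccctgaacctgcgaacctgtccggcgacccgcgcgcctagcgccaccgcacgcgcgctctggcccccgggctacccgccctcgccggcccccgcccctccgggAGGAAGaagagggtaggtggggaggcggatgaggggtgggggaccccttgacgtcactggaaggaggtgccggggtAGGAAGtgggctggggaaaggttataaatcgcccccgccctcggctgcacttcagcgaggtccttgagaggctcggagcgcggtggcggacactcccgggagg
Kdr: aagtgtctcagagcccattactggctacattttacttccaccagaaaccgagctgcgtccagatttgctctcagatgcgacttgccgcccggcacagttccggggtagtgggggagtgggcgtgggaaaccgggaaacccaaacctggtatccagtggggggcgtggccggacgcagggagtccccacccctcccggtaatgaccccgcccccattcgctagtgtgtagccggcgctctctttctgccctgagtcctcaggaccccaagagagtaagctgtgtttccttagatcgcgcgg
Tie1: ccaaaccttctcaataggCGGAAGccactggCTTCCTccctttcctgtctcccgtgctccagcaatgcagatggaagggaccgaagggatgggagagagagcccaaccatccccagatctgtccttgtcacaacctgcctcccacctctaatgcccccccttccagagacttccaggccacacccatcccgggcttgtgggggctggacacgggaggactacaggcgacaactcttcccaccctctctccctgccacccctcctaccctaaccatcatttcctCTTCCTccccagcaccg
The Flt1 window held 2 matches and the Tie1 window 3, while the windows of Kdr, Flt4 and Tek held none. Either motif occurred in 46.5% of 32851 mouse promoter windows of this length, so that 2 of 5 receptor windows is a description of these letters and not of binding. Promoter windows were found for 7 of the 9 genes and not for Angpt1 and Angpt2.

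Between E14 and adult endothelial-like nuclei, 1 receptor and 1 ligand differed by at least 2 times and the other 7 members passed neither bound. Angpt2 was at least 2 times higher at E14 and Flt1 at least 2 times lower. The intervals of the ratio still allow a difference of that size for Vegfa (0.7304, 0.286 to 2.38), Vegfc (0.938, 0.488 to 2.02), Angpt1 (0.691, 0.328 to 1.68) and Flt4. For Vegfa, with 5 adult UMIs, the ratio ran from 0.290 to 1.34 over 11 alternatives. Of the 14200 genes with at least 10 UMIs in these nuclei 20.2% were higher and 18.7% lower by that bound, with a median ratio of 0.987, so that 1 of 9 in each direction is no more than the background.

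Flt1 showed the difference in level between the libraries most clearly. It was 5.77-fold higher in the adult than at E14 (interval 5.33 to 6.25). Taken nucleus by nucleus, the median adult endothelial-like nucleus stood at 5387 CPM of Flt1 (quartiles 3476 and 7344) and the median E14 nucleus 649.4 (186.0 and 1392), so that the middle ranges did not overlap. After thinning each nucleus to 1000 UMIs, Flt1 was detected in 97.6% of 41 adult nuclei and in 49.0% of 157 E14 nuclei. In classes that should lack it the thinned share was 0 of 330 dentate granule-like and 0.590% of 1017 forebrain GABAergic-like nuclei, whose median depths before thinning were 11600 and 4969 UMIs. The 10 endothelial markers were also lower in sum at E14, 4051 against 9040 CPM, while Kdr was not, and their part in the Flt1 difference was not tested. The ratio of E14 to adult stayed between 0.167 and 0.280 over 11 alternatives.

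The other 4 receptors had ratios nearer to 1. The E14 to adult ratio was 1.27 for Kdr, with an interval that starts at 1 (1.00 to 1.62). It was 0.906 for Tek (0.710 to 1.17) and 0.777 for Tie1 (0.556 to 1.11). For Flt4, the lymphatic VEGF-C receptor, it was 1.20 (0.633 to 2.57) from 10 adult and 122 E14 UMIs. Within these bounds changes of up to 1.41-fold for Tek and 1.80-fold for Tie1 toward the adult were not detectable at this depth.

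**Figure D2:**
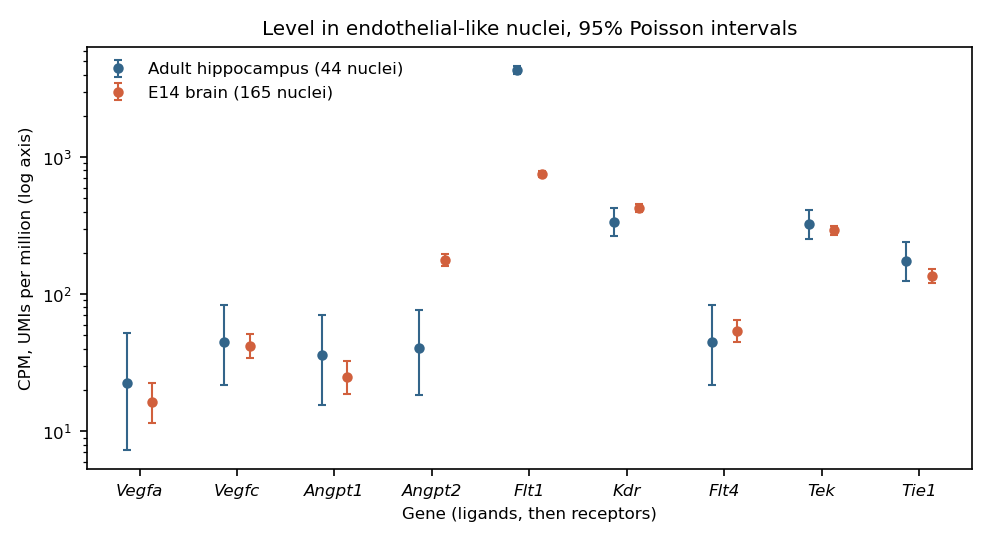
Level of the 9 genes in endothelial-like nuclei of the adult hippocampus (44 nuclei, blue) and the E14 brain (165 nuclei, orange), in CPM on a log axis. Bars are exact 95% Poisson intervals, and they lie apart between the libraries only for Flt1, 4331 against 750.1, and Angpt2, 40.5 against 178.2.

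Cell cycle RNA was found in the E14 endothelial-like nuclei and was nearly absent from the adult ones. A list of 8 cell cycle genes, among them the topoisomerase gene Top2a, had 2045 UMIs in E14 endothelial-like nuclei (908.7 CPM) and 1 UMI in the adult ones. Thinned to 1000 UMIs, 65 of 157 E14 nuclei (41.4%) and 0 of 41 adult nuclei had a UMI of the list, and the exact binomial upper limit for 0 of 41 is 8.60%. Within the E14 nuclei, the 77 with at least 5 cell cycle UMIs had a median depth of 16390 UMIs, and the 52 with none had 4226.5. Flt1 was lower in the former at 643.4 than in the latter at 1213 CPM (ratio 0.530, interval 0.471 to 0.599). Kdr (409.2 against 557.0), Flt4 (44.7 against 92.3) and Tek (269.8 against 385.6) were lower there too, as was the ligand Vegfc (36.8 against 69.2, ratio 0.532, 0.319 to 0.9197). Tie1 (125.5 against 161.5) had an interval that includes 1, and Angpt2 was higher (191.3 against 131.8, ratio 1.45, 1.04 to 2.07). Depth moved with this split and its part in these differences was not tested. In the 52 E14 nuclei without a cell cycle UMI, Flt1 was at 0.280 of the adult level (0.248 to 0.316). These were the shallower nuclei, so the lack of such a UMI does not show that a nucleus was not cycling.

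Vegfa, the main ligand of Kdr and Flt1 (chr17:46016993-46032369, minus strand), was highest in glial classes in the adult, and in choroid plexus, mesenchyme and progenitor classes in the embryo. Adult astrocyte-like nuclei had 128.9 CPM (118 UMIs, interval 106.7 to 154.4) and held 43.5% of the 271 Vegfa UMIs of classified adult nuclei. Oligodendrocyte precursor-like nuclei followed at 75.5 (24 UMIs, 48.4 to 112.4), with an interval that overlaps that of the astrocytes and lies above that of oligodendrocytes at 28.7 (18.9 to 41.7). Thalamic-like (24.5), inhibitory-like (24.1), endothelial-like (22.5) and mural-like nuclei (20.4) could not be ordered, while CA1-like nuclei (5.98) and dentate granule-like nuclei (3.72, 2.17 to 5.96) were lowest. Thinned to 1000 UMIs, 18.2% of 137 astrocyte-like but 0.606% of 330 dentate granule-like nuclei had a Vegfa UMI (unthinned 42.3% and 4.78%, at median depths of 3821 and 11600 UMIs).

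In the embryo no class stood as high for Vegfa. Choroid plexus-like nuclei had 57.2 CPM (91 UMIs, 46.1 to 70.3) and fibroblast or mesenchyme-like nuclei 49.6 (133 UMIs, 41.5 to 58.7). Intermediate progenitor-like nuclei followed at 36.2 (26.6 to 48.2) and radial glia-like nuclei, the stem cells of the embryonic brain, at 28.1 (22.5 to 34.7). Each neighbour in this order overlapped the next, but the interval of the choroid plexus lay above that of the radial glia. Thinned to 1000 UMIs, 3.09% of 97 choroid plexus-like and 6.29% of 318 fibroblast or mesenchyme-like nuclei had a Vegfa UMI. Their intervals (0.642 to 8.77 and 3.88 to 9.55) overlap, so no order between them is read. The thinned share was 3.06% of 360 radial glia-like, 3.05% of 131 intermediate progenitor-like and 1.28% of 1017 forebrain GABAergic-like nuclei. At 1000 UMIs the choroid plexus-like class, with a UMI in only 3 nuclei, did not stand above the radial glia-like class. Thinned to 2000 UMIs, the shares were 10.75% of 93 choroid plexus-like (5.28 to 18.9) and 4.48% of 335 radial glia-like nuclei (2.53 to 7.28). These intervals overlap too, so the thinned shares do not settle the order of these 2 classes. The endothelial-like class was 12th of 13 at 16.4 (11.6 to 22.7). Vegfa summed over all nuclei was 19.2 CPM in the adult and 25.0 at E14 (ratio 1.30, 1.15 to 1.48), which mixes tissues of different makeup.

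Vegfc, the lymphangiogenic ligand (chr8:54077606-54187096, plus strand), had its highest values at E14 in progenitor-like classes where classes were drawn by markers. Radial glia-like nuclei had 55.8 CPM (171 UMIs, 47.8 to 64.9), ahead of intermediate progenitor-like (46.3), endothelial-like (42.2, 34.15 to 51.6) and fibroblast or mesenchyme-like nuclei (39.9), all with overlapping intervals. The progenitor-like classes are broad, with 150 of 378 radial glia-like nuclei in their main cluster, Olig1 and Sox10 among the leading genes, and 36 of 132 intermediate progenitor-like nuclei in theirs. Forebrain GABAergic-like nuclei were far lower at 7.56 (5.68 to 9.865). The E14 mural-like class, at 1 UMI in 36 nuclei, had the lowest value at 4.08. Its interval (0.103 to 22.7) overlaps those of several other classes, the forebrain GABAergic-like one among them, so its place is not settled. With classes taken from whole clusters the radial glia value was 36.6, below the interval given above. The E14 endothelial-like value was then 37.6, so the lead of the radial glia-like class did not hold. In the adult, few UMIs decided the order: mural-like nuclei had 101.8 (15 UMIs in 3 nuclei, 9 of them in 1 nucleus), endothelial-like 45.0 (10 UMIs in 3 nuclei) and astrocyte-like 27.3 (25 UMIs in 16 nuclei). Oligodendrocyte-like nuclei had 0 UMIs in 244 nuclei, with an interval that reaches 3.92 CPM. Of the 3 adult endothelial-like nuclei with a Vegfc UMI, 0 had a UMI of its receptor Flt4, which was seen in only 10 of the 44. At E14, 20 of the 35 endothelial-like nuclei with a Vegfc UMI also had Flt4, which was seen in 73 of the 165.

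Angpt1, the activating ligand of Tek (chr15:42424723-42676977, minus strand), was highest in astrocyte-like nuclei in the adult sample. Astrocyte-like nuclei had 73.2 CPM (67 UMIs in 35 nuclei, 56.7 to 92.9) and held 39.6% of the 169 classified UMIs. Mural-like nuclei, the usual source of angiopoietin-1 beside vessels, had 40.7 (6 UMIs, 14.9 to 88.6) and thalamic-like nuclei 28.75 (41 UMIs, 20.6 to 39.0). The endothelial-like value of 36.0 came from 8 UMIs in 1 nucleus. Dentate granule-like (4.16) and CA1-like nuclei (3.99) were low, and CA3-like and microglia or macrophage-like nuclei had none.

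At E14 mural-like nuclei led for Angpt1 at 61.2 (15 UMIs in 9 nuclei, 34.25 to 100.9), followed by Cajal-Retzius-like nuclei at 56.4 (157 UMIs in 44 of 359 nuclei, 47.9 to 65.9). The latter class is broad, with 98 of its 359 nuclei in its main cluster. Radial glia-like, cortical excitatory-like and fibroblast or mesenchyme-like nuclei lay close together at 36.6, 36.5 and 36.5, below the interval of the Cajal-Retzius-like class. Thalamic-like nuclei, which ranked 4th of 11 in the adult, were lowest of 13 at E14 at 6.30 (11 UMIs, 3.15 to 11.3).

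**Figure D3:**
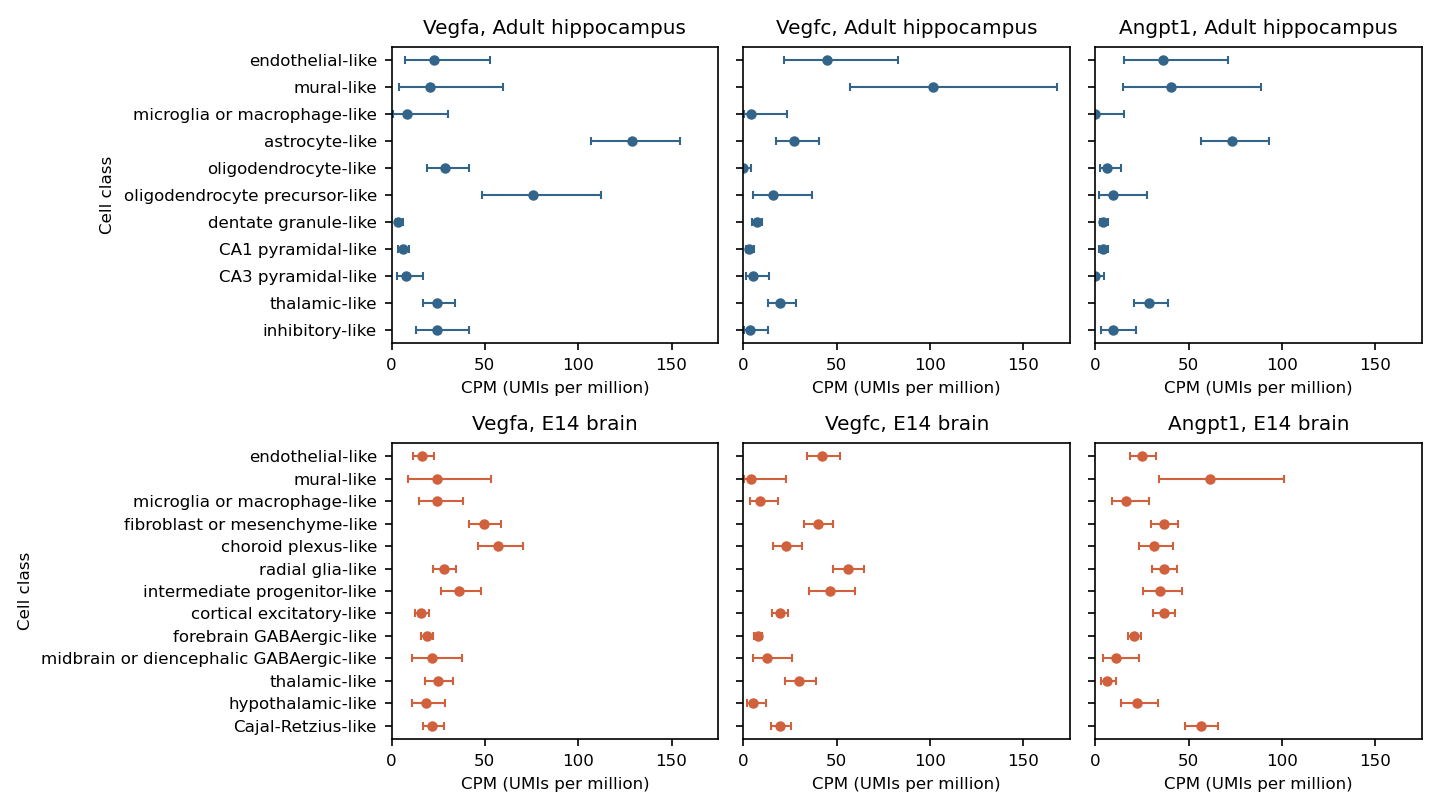
Level of the ligands Vegfa, Vegfc and Angpt1 in each class of at least 10 nuclei, in CPM with exact 95% Poisson intervals, in the adult hippocampus (top, blue) and the E14 brain (bottom, orange). Adult astrocyte-like nuclei stand highest for Vegfa (128.9) and Angpt1 (73.2), and in the embryo the same ligands are spread over several classes between 6.30 and 61.2.

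Angpt2, the antagonist ligand, was found in every class of at least 10 nuclei in both libraries. It was 40.5 CPM in adult endothelial-like nuclei (9 UMIs in 4 nuclei, 18.5 to 76.9) and 178.2 in the E14 ones (401 UMIs in 108 nuclei, 161.2 to 196.5), a 4.40-fold difference (2.29 to 9.69). The other adult classes ran from 19.1 in oligodendrocyte-like to 82.5 in CA3-like nuclei, and the other E14 classes from 119.1 in cortical excitatory-like to 220.4 in radial glia-like nuclei, so the 2 ranges did not overlap. The E14 to adult ratio was 2.50 over all nuclei (2.34 to 2.68), 2.77 in microglia or macrophage-like (1.62 to 5.08) and 3.52 in thalamic-like nuclei (2.68 to 4.67). The endothelial interval includes all of these, so a difference particular to endothelium was not detectable. Against the other classified nuclei, endothelial-like nuclei stood at 0.664 (0.303 to 1.27) in the adult and 1.19 (1.07 to 1.32) at E14.

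The position of Angpt2 bears on these counts. The gene (chr8:18690263-18741562, minus strand, mm10) lies over its whole length of 51.3 kb within Mcph1 (chr8:18595131-18803189), a gene of chromosome condensation and DNA repair on the opposite strand. Mcph1 was among the 3 genes whose levels ran most like those of Angpt2 over 23 classes (Pearson r of log2 levels 0.925, across classes that share libraries and depth). Within each library r was lower, 0.714 over 13 E14 classes and 0.665 over 11 adult classes. In the 13 E14 classes Angpt2 had between 1.22 and 2.00 UMIs per UMI of Mcph1, and the endothelial-like class, at 1.34, was within that range. In the 11 adult classes the ratio ran from 0.556 in mural-like (5 against 9 UMIs) and 0.588 in astrocyte-like to 1.83 in inhibitory-like nuclei, and Angpt2 was below Mcph1 in 5 of them. Mcph1 was itself higher at E14 in endothelial-like nuclei, at 132.9 CPM (299 UMIs, 118.2 to 148.8). In the adult ones it was at 36.0 (8 UMIs, 15.55 to 71.0). Over all nuclei Mcph1 was at 103.4 at E14 and 57.7 in the adult. How many Angpt2 UMIs came from RNA of the Mcph1 locus was not tested. No other member overlapped an annotated gene except Angpt1, with 0.737 kb shared with the antisense gene Gm17473, which was at or below 4.08 CPM in every class.

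**Figure D4:**
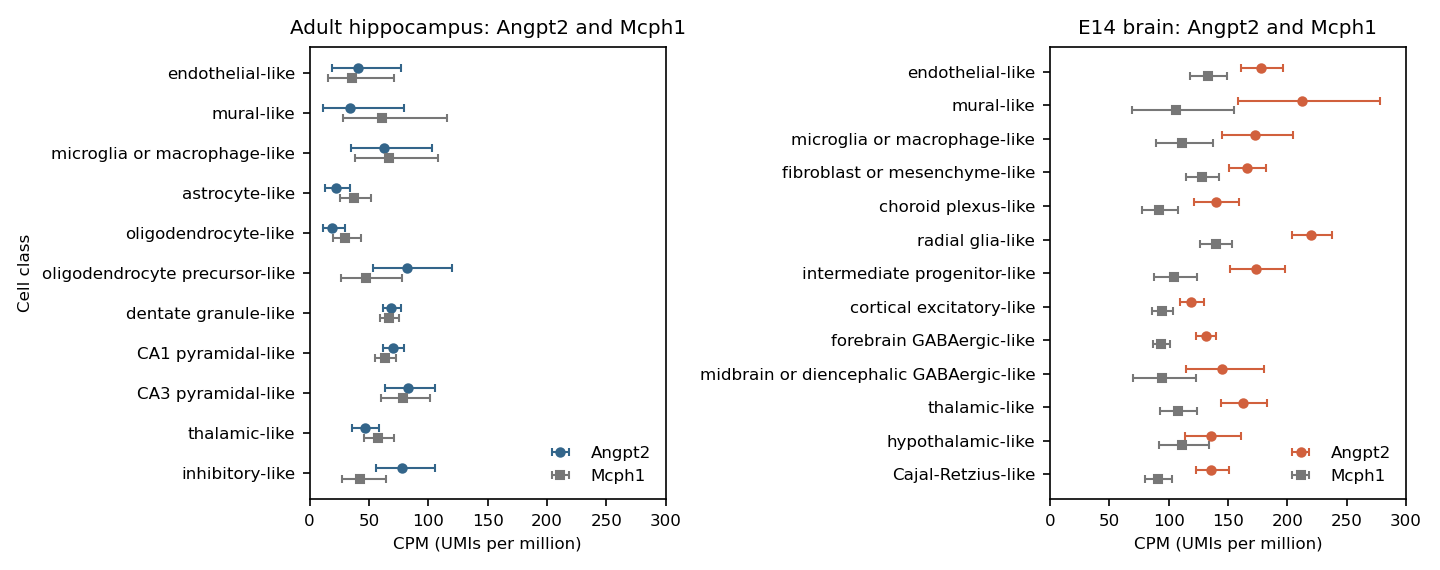
Level of Angpt2 (coloured circles) and of Mcph1, the gene that encloses it on the opposite strand (grey squares), in each class of the adult hippocampus (left) and the E14 brain (right), in CPM with exact 95% Poisson intervals. Both genes are present in all classes, and Angpt2 runs above Mcph1 in all 13 E14 classes but below it in 5 of the 11 adult classes.

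Receptor RNA outside the vessels concerned mainly Tek and Kdr. Adult dentate granule-like nuclei, the principal neurons of the dentate gyrus, had 233 Tek UMIs in 118 of 335 nuclei (35.2%, 30.1 to 40.6), or 51.0 CPM (44.7 to 58.0). That is 15.7% of the endothelial level (12.0 to 20.8), whereas Flt1 reached 0.00506% (0.000128 to 0.0282) and the endothelial phosphatase gene Ptprb 0.189% (0.0897 to 0.354) in the same nuclei. Inhibitory-like nuclei were alike, with 28 UMIs in 15 of 37 nuclei at 52.0 CPM (34.5 to 75.1). CA1-like nuclei, of greater depth (median 17196 against 11600 UMIs), had 8.54 CPM (5.76 to 12.2) and a UMI in 10.5% of 210 nuclei. After thinning, 6.97% of 330 dentate granule-like, 0.508% of 197 CA1-like and 0 of 35 inhibitory-like nuclei had a Tek UMI. The exact binomial upper limit for 0 of 35 is 10.0%, so the inhibitory-like share cannot be set apart from that of the dentate granule-like nuclei at this depth. The ratio of Tek to Flt1 UMIs was 72 to 962 in endothelial-like and 233 to 1 in dentate granule-like nuclei, and the part of free RNA in these UMIs was not tested.

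In the embryo the corresponding case was Kdr in choroid plexus-like nuclei, the epithelium that makes cerebrospinal fluid. Kdr had 72 UMIs in 34 of 101 nuclei (33.7%, 24.6 to 43.75), or 45.3 CPM (35.4 to 57.0). This was 10.6% of the endothelial level (8.22 to 13.5), against 0.922% for Flt1 (0.4595 to 1.65) and 3.25% for Ptprb (1.85 to 5.31). The choroid plexus-like class held 549.6 CPM of the endothelial markers, of which 89.8% were Mecom, and Cldn5 was at 5.66. Radial glia-like nuclei had 30 Kdr UMIs at 9.79 CPM (6.61 to 13.98), or 2.29% of the endothelial level (1.54 to 3.29), against 0.435% for Flt1 (0.208 to 0.8025). With classes taken from clusters, radial glia-like Kdr was 4.69 and choroid plexus-like Kdr 56.4. Thinned to 1000 UMIs, 5.15% of 97 choroid plexus-like and 0.0983% of 1017 forebrain GABAergic-like nuclei had a Kdr UMI, at median depths before thinning of 10348 and 4969.

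**Figure D5:**
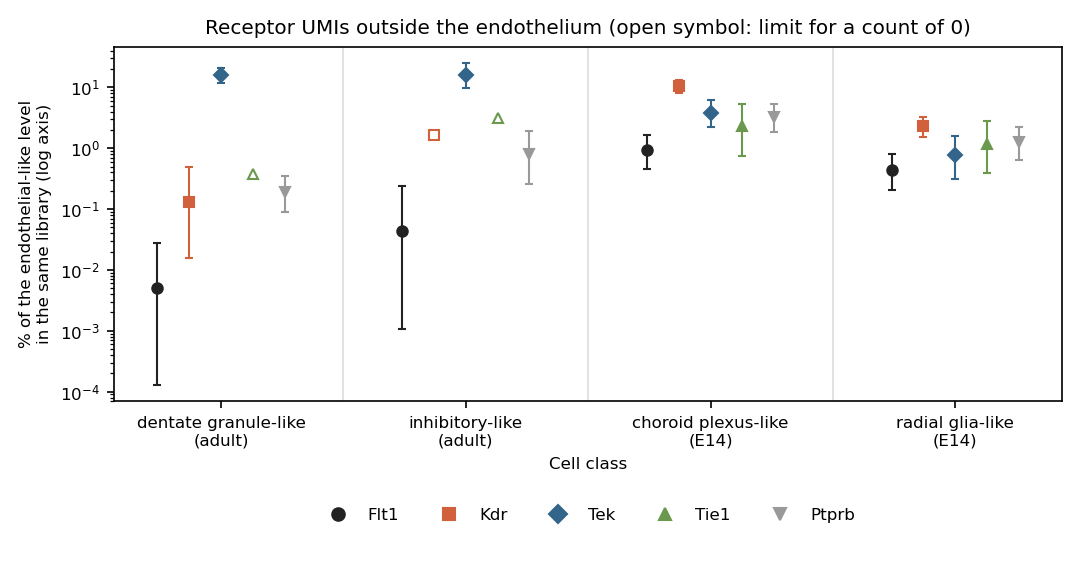
Level of the receptors Flt1, Kdr, Tek and Tie1 and of the endothelial gene Ptprb in 4 non-endothelial classes, as a percentage of the level in endothelial-like nuclei of the same library, on a log axis with exact 95% intervals; open symbols are limits for a count of 0. Tek reaches 15.7% in dentate granule-like and 16.0% in inhibitory-like nuclei, and Kdr 10.6% in choroid plexus-like nuclei, while Flt1 stays below 1% in all 4 classes.

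Mural-like nuclei carried receptor RNA as well as endothelial markers in both libraries. In the adult class Flt1 was at 68.0% of the endothelial level and Ptprb at 86.2%, and 142 of its 434 Flt1 UMIs were in 1 nucleus. In the E14 class, with endothelial markers at 558.9 CPM, Flt1 was at 28.8% and Kdr at 13.4%. Adult Tek was 366.4 there (54 UMIs, 275.3 to 478.1), within the interval of the endothelial level. The part of endothelial RNA in these values was not tested.

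Around the 9 members, 50 further genes of the pathway were read in the same endothelial-like nuclei, in 7 lists, beside the same background of 20.2% higher and 18.7% lower. All 8 cell cycle genes were higher at E14, Top2a by at least 24.2-fold, Mki67 by at least 9.25-fold, Cenpf by at least 8.69-fold and Cenpe by at least 7.14-fold against 3 counts in the adult class, and Aspm by 8.59-fold (1.5 to 343). Of 8 venous and arterial genes 4 were higher (Nr2f2, Ephb4, Efnb2 and Gja4) and 3 lower (Bmx, Sox17 and Hey1). Of 9 sprouting and tip cell genes with enough UMIs, Pdgfb (0.257, 0.191 to 0.349) and Robo4 (0.426, 0.256 to 0.743) were lower at E14. A further 3 had ratios past 2 with intervals that include 1, Apln (3.16, 0.528 to 129), Igfbp3 (4.24, 0.722 to 171.5) and Plvap (3.11, 0.826 to 26.2), from 1, 1 and 2 adult UMIs. Of the 6 oxygen sensing genes 0 were higher and 1, Epas1, was lower (0.241, 0.204 to 0.2865). The genes of these 3 lists are named after their values were seen.

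In the list for quiescence and the FOXO1 or KLF axis, 2 of 6 genes were lower at E14 and 1 was higher. Klf2 and Klf4, flow-responsive transcription factors, were lower at E14, at 48.9 against 679.8 and 6.67 against 139.6 CPM, which is 13.9-fold (10.8 to 17.95) and 20.9-fold (10.97 to 41.7) higher in the adult. The apelin receptor gene Aplnr was 13.5-fold higher at E14 (3.71 to 112) and the other 3 genes passed neither bound. Of 6 receptor modifiers and ligand-processing genes, Sema3c was 27.9-fold higher in the adult (19.9 to 39.6), Sema3a, a guidance ligand that binds the co-receptor NRP1, was 7.995-fold higher at E14 (1.40 to 320) from 1 adult UMI, and 1 further gene, Ptprb, was lower at E14 at 0.268 (0.232 to 0.310). PTPRB removes phosphate from TEK, and like Flt1 it was lower at E14, while Tek did not pass the bound. Among the 5 ligands and co-receptors with enough UMIs, 1 (Nrp2) was higher and 1 (Vegfb) lower. Nrp1 and Nrp2, co-receptors of the VEGF receptors, were named after their values were seen: Nrp1 was at 553.7 in the adult and 388.4 at E14 (ratio 0.701, 0.580 to 0.854) and Nrp2 at 112.5 and 327.0 (2.91, 1.95 to 4.52).

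The genes whose levels ran most like each member over the 23 classes of at least 30 nuclei were taken by Pearson r of log2 levels. Tie1 was among the nearest 3 of 16727 genes to both Flt1 (r = 0.932) and Flt4 (0.942), with Igfbp7 and She also near Flt1 and AU021092 and Tmem252 near Flt4. Tie1 was nearest to AU021092 (0.976), Rassf9 and Tead4. Kdr was nearest to the class markers Pecam1 (0.911) and Mecom, and to Rbpms. Tek was nearest to Gm20456 (0.890), Filip1 and B3gnt2, and the ligands had lower values: Phka1 (0.823), Nfyc and Cpne2 for Vegfa, Ptgfrn (0.824), Lhx2 and Zc3h14 for Vegfc, and Selenon (0.844), Cnn3 and Msi2 for Angpt1. For Angpt2 the 2 nearest before Mcph1 were Gm17477 (0.947) and Pcgf2 (0.945). These correlations describe 23 points from 2 libraries that share depth and composition within each.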

How the data were processed

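Cell Ranger, run by the authors on the mm10 build with introns counted, gave the deposited counts (UMIs of each gene in each nucleus), in version 6.1.2 for the adult and 7.0.1 for the embryo per the file headers. CellBender is named for the embryo in the methods, but the header is that of Cell Ranger, so background removal was assumed not to have been applied. Barcodes needed 500 UMIs and less than 5% of them mitochondrial. A nucleus took the class with the highest sum of detected markers, each weighted by -log10 of its share of nuclei with a UMI (at most 2), with at least 3 of 10 markers and a lead of 1 over the next class. Scrublet's own threshold marked 6 and 4 nuclei and so did not work as a caller, and doublets were kept. Clusters came from Seurat 5.3.0 (2000 variable genes, 30 components, Louvain resolution 0.8). Counts were summed per class with scipy 1.17.1, and a gene needed 10 UMIs to enter a ratio. Counts of 0 were set to 3 in ratios. Ratios and intervals were run on simulated Poisson counts, which hold no spread between nuclei, so this run does not bear on that spread. Members, gene lists and the scoring were chosen with earlier results of these data known. Named were the members, up to 10 pathway genes of at least 20 UMIs with the largest ratios, and 3 genes most like each member. Ptprb, Mcph1, Nrp1, Nrp2, Vegfb and the sprouting, oxygen sensing, venous and arterial genes were singled out after their values were seen.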

Additional observations from a re-analysis of the deposited data

How the results depend on the processing

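Classes were rebuilt with 2 or 4 markers in place of 3 and from Louvain clusters. Likely doublets (the 21 adult and 653 E14 nuclei with the highest Scrublet scores), nuclei under 1000 UMIs, nuclei over 1% mitochondrial UMIs and nuclei under 1.5% Malat1 were left out in turn. The likely doublets included 30 of the 165 E14 endothelial-like nuclei and 1 of the 44 adult ones. Levels were rescaled without mitochondrial genes and Malat1, and ratios were divided by the median ratio. Chosen after seeing the data were endothelial-like nuclei of 1 cluster, those without cell cycle UMIs, and classes without the mural one. With cluster classes 2 of the 9 members were at least 2 times lower at E14, Flt1 and Vegfc (ratio 0.411), and without cell cycle UMIs 2 were at least 2 times higher, Angpt2 and Flt4 (2.03). The other 44 of 46 counts of members stayed within 1.5 times. Of 99 E14 to adult ratios 94 stayed within the interval given in the report, and Angpt2 ranged from 3.02 to 7.12. The adult endothelial level of Vegfc was 91.5 CPM with cluster classes. Of 338 levels 317 stayed within their interval. Detected shares rise with depth, and 6 of 18 thinned shares moved out of their interval at 2000 UMIs. No paired analysis was possible because each group was 1 library.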
